A study of Mus musculus with 12 samples.

Results

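The axon guidance genes described here are 10 genes that steer the axons of olfactory sensory neurons (OSNs) to the olfactory bulb. They were chosen by name, as *Nrp1*, *Nrp2*, *Sema3a*, *Sema3f*, *Plxna1*, *Plxna3*, *Robo2*, *Slit1*, *Kirrel2* and *Kirrel3*. Each was measured by 1 probe set that carries its symbol alone, so the 10 genes are 10 of the 35556 probe sets on the array and 10 of the 21789 that carry a single gene symbol.

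RNA of the main olfactory epithelium (MOE), where the OSNs and their progenitors lie, was hybridised to 12 arrays with 1 mouse per array. The ΔJ group held 6 mice homozygous for a CRISPR-Cas9 deletion of the J element, an enhancer of the class I odorant receptor genes on chromosome 7, with 3 males and 3 females. The reference was 6 wild-type mice, 2 males and 4 females, described as littermates. All mice are labelled C57BL/6. They were taken at P30, apart from 1 ΔJ mouse (replicate 6) and 2 wild-type mice (replicates 5 and 6), which were taken at P33. The deletion was made in B6C3F1 zygotes, and 1 founder was backcrossed to C57BL/6NCrSlc, so the deleted mice are of 1 line. For the arrays the paper names heterozygotes of only the second backcross generation. No other allele or agent was named for either group.

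An OSN sends a single axon to the olfactory bulb, and axons of neurons that chose the same odorant receptor meet in shared glomeruli. Secreted class 3 semaphorins repel axons through receptor complexes in which a neuropilin binds the ligand and a class A plexin carries the signal into the cell, and Slit proteins repel axons through Robo receptors. In mice, Nrp2 and Sema3f sort axons along the dorsoventral axis of the bulb and Nrp1 and Sema3a along the anteroposterior axis, while the homophilic adhesion molecules Kirrel2 and Kirrel3 are made in complementary sets of OSNs and help like axons to gather. Class I receptors are chosen in the dorsal zone of the MOE, so the comparison asks whether the guidance genes differed where the enhancer of those receptors was deleted.

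The deletion showed in receptor genes picked because they lost the most signal in earlier results of these data. A check on genes picked in this way could not fail. *Olfr544*, a class I receptor gene beside the J element, lay between -3.55 and -3.27 in ΔJ mice and between -1.75 and -1.41 in wild-type mice, and *Olfr552* between -3.65 and -2.73 in ΔJ mice and between -0.99 and -0.37 in wild-type mice. Here and below, a level is the log2 signal of a probe set minus the 75th percentile of its array, so 0 is the 75th percentile, and levels of different genes are not set against each other. The mean level of 8 mature OSN markers was 3.44 ± 0.09 in ΔJ mice and 3.46 ± 0.03 in wild-type mice (SD, n = 6 each), and that of 8 olfactory bulb neuron markers lay between -1.82 and -1.48 in ΔJ mice and between -1.93 and -1.53 in wild-type mice. The arrays fall into sets by replicate number. The cut between replicates 3 and 4 was taken from the spread of values in earlier results of these data. Replicates 1 to 3 of each genotype (array set 1) had an SD over all probe sets of 2.07 to 2.13, and replicates 4 to 6 (array set 2), which hold all P33 mice, an SD of 2.20 to 2.23. The array of ΔJ replicate 5 stood apart. Its mean correlation with the other 5 arrays of set 2 was 0.981, against 0.986 to 0.989 for those 5 arrays, and it held the lowest level of array set 2 in 7 of the 10 guidance genes and in 26.5% of all probe sets. It held the highest level of the set in 29% of all probe sets. Its mature OSN markers averaged 3.26, below the 3.40 to 3.52 of the other 11 mice. The 4 measured of 5 listed vomeronasal markers averaged 0.24, below the 0.52 to 0.79 of the other 11 mice. Of that list, *Trpc2* was not measured. *Vmn2r1* averaged -3.77 in ΔJ mice and -3.76 in wild-type mice, near the Y-linked *Kdm5d* in females (-3.72). The share of vomeronasal tissue was not tested. Values without ΔJ replicate 5 are given beside the differences of guidance genes that this array moved most. Correlations across mice were not computed with this mouse alone left out.

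None of the 10 guidance genes differed between the genotypes by the test. In the fit of limma over all probe sets, with Benjamini-Hochberg adjustment, 0 of 10 were called at an adjusted p under 0.05, where 0.135% of all probe sets (48 of 35556) were called. No gene was called higher in ΔJ mice, beside 0.00562% of all probe sets, or lower, beside 0.129%. The 10 adjusted p-values lay between 0.993 and 0.997. At an unadjusted p under 0.05 the counts were 0 of 10 and 3.33% of all probe sets. No gene differed by more than 1.3-fold (2.91% of all probe sets did), and the levels of the genotypes overlapped for all 10 genes (0.301% of all probe sets did not overlap). The estimates ran from -0.25 for *Kirrel2* to 0.10 for *Nrp2* on the log2 scale, and 8 of 10 were below 0, as were 60.2% of all probe sets. For 8 of the 10 genes the 95% confidence interval lay within 1.3-fold in both directions (0.38 on the log2 scale), and the intervals of *Plxna3* and *Kirrel2* reached further down. In RNA of a whole tissue, fewer cells of a type and less RNA per cell cannot be told apart. The intervals are for the whole MOE and set no bound on a difference within class I OSNs alone.

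**Figure D1:**
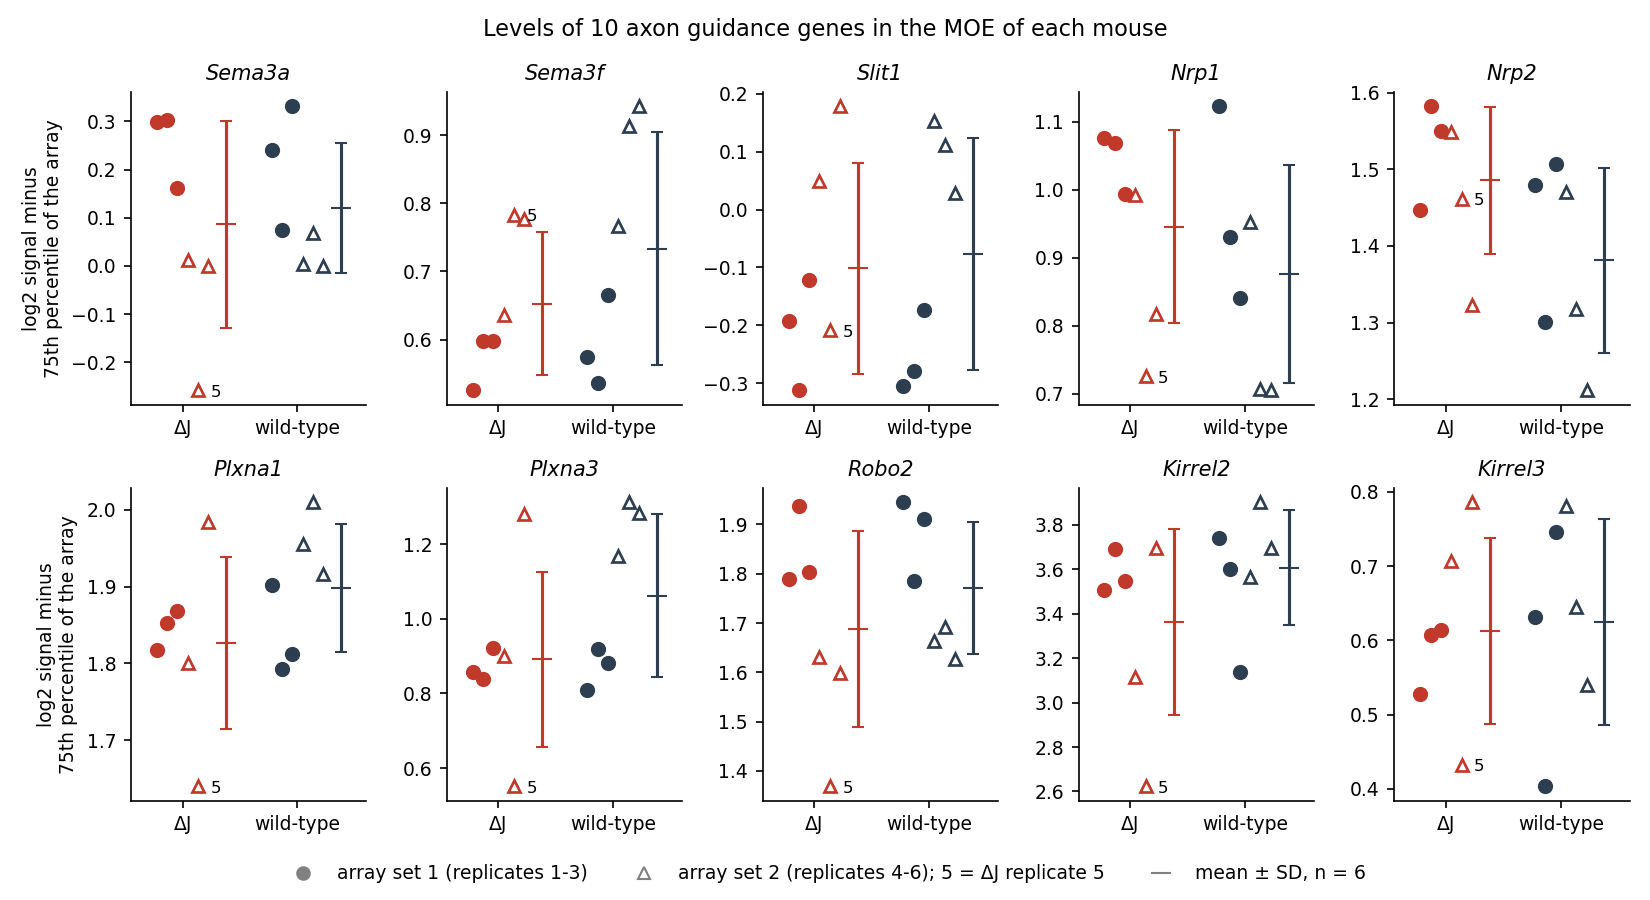
Level of each gene in each mouse, as log2 signal minus the 75th percentile of the array, with ΔJ mice (red) left of wild-type mice (dark), filled circles for array set 1, open triangles for array set 2, and bars for the mean ± SD of 6 mice. The genotypes overlap in every panel, and ΔJ replicate 5 (marked 5) is the lowest of all 12 mice in 5 of the 10 genes and in 20.9% of all probe sets.

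The 3 secreted ligands had estimates between -0.08 and -0.02. *Sema3a*, which repels axons that carry Nrp1, had levels from -0.26 to 0.30 with a median of 0.09 in ΔJ mice, against 0.00 to 0.33 with a median of 0.07 in wild-type mice. The lowest of these 12 levels is that of ΔJ replicate 5, and the other 5 ΔJ mice lay within the range of the wild-type mice to 2 decimals. The log2 fold change was -0.03 (95% confidence interval -0.26 to 0.19), and 0.03 without ΔJ replicate 5. *Sema3f*, the ligand of Nrp2, ranged from 0.53 to 0.78 with a median of 0.62 in ΔJ mice and from 0.54 to 0.94 with a median of 0.72 in wild-type mice. The highest 2 levels were those of wild-type replicates 5 and 6, at 0.91 and 0.94. The log2 fold change was -0.08 (-0.27 to 0.10). It was -0.11 without ΔJ replicate 5, -0.04 with age as a term and -0.0076 in the P30 mice alone. *Slit1*, a ligand of the Robo receptors, ranged from -0.31 to 0.18 with a median of -0.16 in ΔJ mice and from -0.30 to 0.15 with a median of -0.07 in wild-type mice. Both genotypes thus covered nearly the same span. Its log2 fold change of -0.02 (-0.26 to 0.21) became -0.0028 without ΔJ replicate 5.

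The estimates of both neuropilins were above 0, here and under all 25 alternative settings, some of which cannot change an estimate. *Nrp1*, the receptor that binds Sema3a, had levels from 0.73 to 1.08 with a median of 0.99 in ΔJ mice, against 0.70 to 1.12 with a median of 0.89 in wild-type mice. The ΔJ levels lay inside the span of the wild-type levels. The log2 fold change was 0.07 (-0.12 to 0.26). It was 0.11 without ΔJ replicate 5 and 0.0099 in the P30 mice alone. By sex, which was not among those settings, *Nrp1* was at -0.02 in females and 0.21 in males. Without ΔJ replicate 5 it was at 0.07 in females. *Nrp2*, the receptor that binds Sema3f, ranged from 1.32 to 1.58 with a median of 1.51 in ΔJ mice and from 1.21 to 1.51 with a median of 1.39 in wild-type mice. Of the ΔJ mice, replicates 2, 3 and 4 (1.58, 1.55 and 1.55) were above every wild-type mouse, whereas ΔJ replicate 6 (1.32) was within the wild-type range. With a log2 fold change of 0.10 (-0.05 to 0.26), *Nrp2* had the smallest unadjusted p of the 10 genes, 0.169, and an adjusted p of 0.993 in limma. The mean levels were 1.49 ± 0.10 in ΔJ mice and 1.38 ± 0.12 in wild-type mice (SD, n = 6 each), and the estimate was 0.11 without ΔJ replicate 5.

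Among the signalling receptors, *Plxna1*, a coreceptor of the neuropilins, ranged from 1.64 to 1.98 with a median of 1.84 in ΔJ mice and from 1.79 to 2.01 with a median of 1.91 in wild-type mice. Only ΔJ replicate 5 fell below the wild-type range. The log2 fold change was -0.07 (-0.22 to 0.08), and -0.03 without that mouse. *Plxna3*, the X-linked plexin that carries Sema3f signals, ranged from 0.55 to 1.28 with a median of 0.88 in ΔJ mice and from 0.81 to 1.31 with a median of 1.04 in wild-type mice. Its 6 levels in array set 1 lay within 0.81 and 0.92, while array set 2 held both the lowest level, 0.55 in ΔJ replicate 5, and the highest, 1.31 in wild-type replicate 5. The log2 fold change was -0.17 (-0.44 to 0.10), and -0.10 (-0.36 to 0.16) without ΔJ replicate 5. Without ΔJ replicate 6 it was -0.25 (unadjusted p = 0.0482, adjusted p = 0.914 in limma). *Robo2*, the Slit receptor that is graded along the dorsoventral axis of the MOE, ranged from 1.37 to 1.94 with a median of 1.71 in ΔJ mice and from 1.63 to 1.95 with a median of 1.74 in wild-type mice. In both genotypes the 3 mice of array set 1 were the highest. Its log2 fold change of -0.08 (-0.30 to 0.13) became -0.02 without ΔJ replicate 5.

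With all 12 mice, *Kirrel2* had the largest difference and the widest interval of the 10 genes. Without ΔJ replicate 5 its difference was smaller in size than those of *Nrp1*, *Nrp2*, *Sema3f* and *Plxna3*, and in array set 1 alone it was smaller than that of *Nrp2*. This adhesion molecule, whose expression in OSNs rises with neuronal activity, had levels of 3.51, 3.69, 3.55, 3.11, 2.62 and 3.70 in ΔJ replicates 1 to 6 and of 3.74, 3.60, 3.14, 3.56, 3.90 and 3.70 in wild-type replicates 1 to 6. The ΔJ replicates 4 and 5 were below every wild-type mouse, and the other 4 ΔJ mice were within the wild-type range. The mean was 3.36 ± 0.42 in ΔJ mice and 3.61 ± 0.26 in wild-type mice (SD, n = 6 each), a log2 fold change of -0.25 (-0.65 to 0.15), with an adjusted p of 0.993 in limma. On the linear scale this is 84.4% of the wild-type level, with an interval from 63.9% to 111%. Without ΔJ replicate 5, which had the lowest mean of mature OSN markers, the log2 fold change was -0.10 (-0.41 to 0.21), or 93.5% of the wild-type level. Not every such marker was lowest in that mouse. The lowest *Omp* level of ΔJ mice, 3.95, was above the lowest of wild-type mice, 3.88. The SD of *Kirrel2* within genotypes, 0.35, was larger than that of 82.4% of all probe sets, whereas the median SD of all probe sets was 0.19 and the other 9 guidance genes had SDs of 0.10 to 0.23. *Kirrel3*, which marks OSNs low in Kirrel2, ranged from 0.43 to 0.79 with a median of 0.61 in ΔJ mice and from 0.40 to 0.78 with a median of 0.64 in wild-type mice. These ranges are nearly the same, and the log2 fold change was -0.01 (-0.19 to 0.16), or 0.02 without ΔJ replicate 5. No genotype held a mouse beyond Dixon's limit for an outlier in any of the 10 genes (20 groups of 6).

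**Figure D2:**
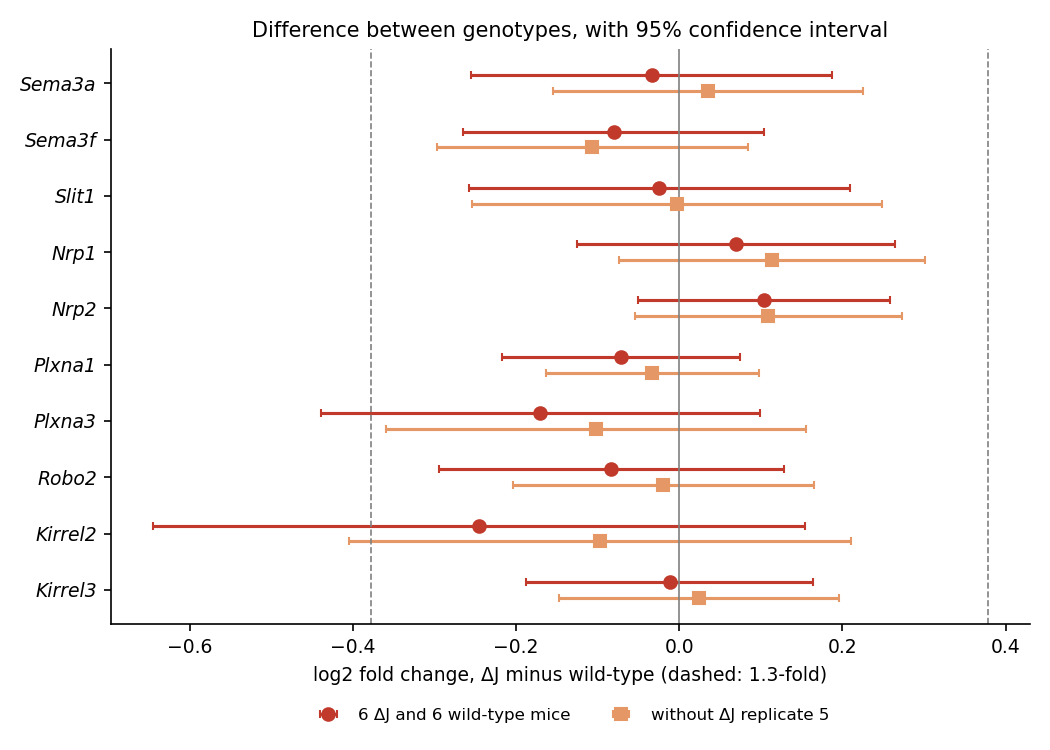
Log2 fold change of each gene, ΔJ minus wild-type, with its 95% confidence interval, from all 12 mice (red circles) and without ΔJ replicate 5 (orange squares); dashed lines mark 1.3-fold. Every interval includes 0, and the estimate of *Kirrel2* moved from -0.25 to -0.10 when ΔJ replicate 5 was left out.

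The genotype difference was also compared within each array set. In array set 1 the 10 log2 fold changes lay between -0.04 (*Robo2*) and 0.10 (*Nrp2*), with 3 of 10 below 0. In array set 2, which contains ΔJ replicate 5, they lay between -0.58 (*Kirrel2*) and 0.11 (*Nrp2*), with 8 of 10 below 0. Without that mouse, which leaves 2 ΔJ mice in array set 2, they lay between -0.32 (*Kirrel2*) and 0.12 (*Nrp1*), with 6 of 10 below 0. *Nrp2* thus kept nearly the same estimate in both sets, while *Kirrel2* was at -0.58 in array set 2 and 0.09 in array set 1 and *Plxna3* at -0.34 in array set 2 and 0.0026 in array set 1. Without ΔJ replicate 5, the values in array set 2 were -0.32 for *Kirrel2* and -0.16 for *Plxna3*. A test of the difference between the sets, as an interaction of genotype and array set in limma, called 0 of 10 genes, and 0% of all probe sets were called. At an unadjusted p under 0.05 it gave 0 of 10 genes, and 3.83% of all probe sets. The interaction was -0.66 for *Kirrel2* (-1.40 to 0.08, unadjusted p = 0.0741, adjusted p = 0.909).

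With levels set to the 75th percentile of each array, the difference between array sets was larger in size than that between genotypes for 7 of the 10 genes. This count was not made over all probe sets, so it is not read as a trait of these genes. Of all probe sets, 42.2% were called between array sets and 0.135% between genotypes. In a limma fit with genotype as a covariate, 5 of the 10 genes were called between array set 2 and array set 1, beside 42.2% of all probe sets. The replicate numbers come from the labels, which do not say what the mice of a set share. The cut into sets was chosen from these same arrays, so the p-values between sets do not test a grouping fixed beforehand. The 3 P33 mice are all in array set 2, so set and age cannot be fully told apart. The ligands moved in opposite directions. *Slit1* was higher in array set 2, with a mean of 0.05 ± 0.14 in array set 2 and -0.23 ± 0.08 in array set 1 (SD, n = 6 each), a difference of 0.28 (adjusted p = 0.0069), and *Sema3f* was higher by 0.22 (adjusted p = 0.00587), with means of 0.80 ± 0.11 in array set 2 and 0.58 ± 0.05 in array set 1. With these 2 genes, 2 of 10 were called higher, beside 10.4% of all probe sets. *Sema3a* averaged -0.03 ± 0.12 in array set 2 and 0.24 ± 0.10 in array set 1, a difference of -0.26 (adjusted p = 0.00776). The receptors *Robo2* and *Nrp1* were also lower in array set 2, by -0.27 (adjusted p = 0.00358) and by -0.19 (adjusted p = 0.045). These 3 genes make 3 of 10 called lower, beside 31.8% of all probe sets. The calls depended on the scaling. The median difference of all probe sets between array sets was -0.10 with the 75th percentile subtracted and 0.05 with no shift, and with no shift 24.4% of all probe sets were called higher and 16.8% lower. *Slit1* and *Sema3f* were called under all 3 other scalings (no shift, median subtracted, quantile normalization) and without any 1 mouse. *Robo2* was at -0.12 with no shift (adjusted p = 0.111), *Sema3a* at -0.12 with no shift and -0.18 with the median subtracted (adjusted p = 0.15 and 0.05002), and *Nrp1* at -0.05 with no shift and -0.10 with the median subtracted (adjusted p = 0.623 and 0.351). *Plxna3* was called higher with no shift (0.35, adjusted p = 0.0241), with the median subtracted (0.30, adjusted p = 0.0459) and without ΔJ replicate 5, and *Plxna1* with no shift (0.18, adjusted p = 0.0348). The call of *Nrp1* was also lost without any 1 of 9 mice, among them ΔJ replicate 5 (adjusted p = 0.0768), while *Sema3a* and *Robo2* were called without any 1 of the 12 mice. At the 75th percentile scale, the levels of the sets did not overlap for *Sema3a* and *Robo2*, 2 of 10 genes, and for 23.3% of all probe sets. For *Slit1* they overlapped only through ΔJ replicate 5, whose -0.21 fell among the levels of array set 1. The mean level of the 5 measured of 7 listed markers of ensheathing glia, cells that wrap the sensory axons, lay between 0.22 and 0.66 in array set 2 and between 0.14 and 0.24 in array set 1. The mean level of 7 markers of the respiratory epithelium and glands lay between 3.61 and 3.76 in array set 2 and between 3.47 and 3.54 in array set 1, the only 1 of 10 cell type lists whose sets did not overlap, with 4 of its 7 markers called higher and 0 lower in array set 2. The part of these cell types in the differences was not tested. Both plexins, both Kirrel genes and *Nrp2* were not called at that scale, with differences between -0.11 and 0.21.

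**Figure D3:**
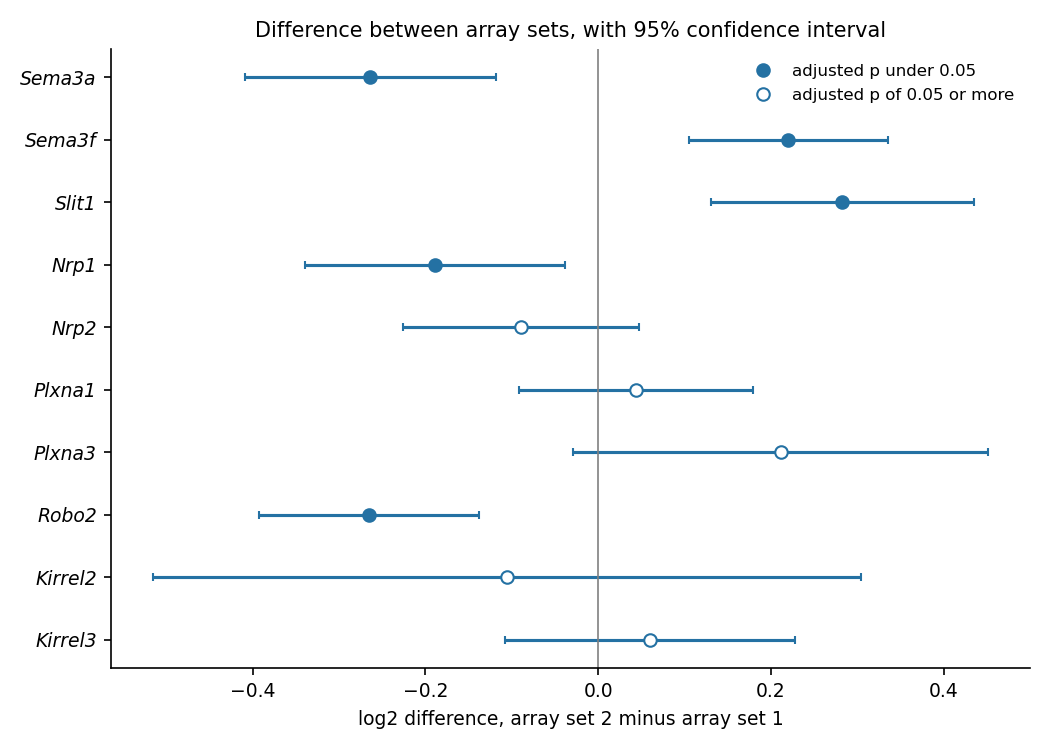
Difference of each gene between array set 2 and array set 1, on the log2 scale, with its 95% confidence interval from a limma fit that also holds genotype; filled points have an adjusted p under 0.05. *Slit1* and *Sema3f* lie to the right of 0, and *Sema3a*, *Nrp1* and *Robo2* to the left, of which these 3 lost their calls with no shift.

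Sex was compared in a limma fit with genotype and array set as covariates, with 7 females and 5 males. It called 0 of 10 genes, beside 0.0141% of all probe sets. At an unadjusted p under 0.05 the counts were 1 of 10 genes and 8.13% of all probe sets. That gene was *Sema3a*, with a mean of 0.03 ± 0.16 in 7 females and 0.20 ± 0.15 in 5 males (SD), a fitted difference of -0.13 (-0.27 to -0.0038, unadjusted p = 0.0448, adjusted p = 0.61 in limma). The X-linked *Plxna3* had a fitted difference of -0.17 (-0.41 to 0.06) between females and males. No interaction of genotype and sex was called either, with 0 of 10 genes and 0% of all probe sets (0 of 10 and 10.2% at an unadjusted p under 0.05). *Kirrel2* had a log2 fold change of -0.56 in females, who include ΔJ replicate 5, and of 0.11 in males. Without that mouse it was -0.32 in females, and the interaction over all mice was -0.66 (-1.44 to 0.12, unadjusted p = 0.0883, adjusted p = 0.539 in limma).

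Partners in guidance were compared across mice within each array set of 6. The 6 pairs of partners were *Nrp1* with *Sema3a* and with *Plxna1*, *Nrp2* with *Sema3f* and with *Plxna3*, *Robo2* with *Slit1*, and *Kirrel2* with *Kirrel3*, which gave 12 relations. None passed an exact two-sided permutation test after Benjamini-Hochberg adjustment, and the smallest adjusted p was 0.184. That was *Nrp2* and *Sema3f* in array set 2, with Pearson's r of -0.889 (exact permutation p = 0.0153) and Spearman's rho of -0.943 (exact permutation p = 0.0167, adjusted p = 0.2). In array set 1 the same pair had r of 0.601 (exact permutation p = 0.215, adjusted p = 0.461), and the opposite signs were not tested against each other. Without the 2 mice farthest from the median of *Nrp2*, r was -0.607 in array set 2 and 0.617 in array set 1. With the deposited values left unshifted, the relation in array set 2 had r of -0.933 (exact permutation p = 0.00139, adjusted p = 0.0167). In that set *Nrp2* lay between 1.21 and 1.32 in the 3 P33 mice and between 1.46 and 1.55 in the 3 P30 mice, and *Sema3f* between 0.78 and 0.94 in P33 mice and between 0.64 and 0.78 in P30 mice. The permutations exchange mice of both ages, and the relation cannot be told apart from age, since 3 mice of an age are too few for a value of their own. The other 10 relations had r between -0.666 and 0.875. The upper end was that of *Robo2* and *Slit1* in array set 2 (exact permutation p = 0.0847, adjusted p = 0.461), and it became -0.08 without the 2 mice farthest from the median of *Robo2*, so it rested on those mice.

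For each gene, the single-gene probe sets that varied most like it were sought over the 12 mice, after the means of each genotype and array set were removed. These are the highest of many correlations over few mice that share arrays, and they are given as a description. They were not computed without ΔJ replicate 5, and neither was the fold change of *Kcng1*. *Kirrel2* varied most like *Kcng1* (r = 0.985), a potassium channel gene, and *Zfp759* (0.974). *Kcng1* had a log2 fold change of -0.37 between ΔJ and wild-type mice. *Plxna3* varied most like *Cox15* and *Sorbs3* (0.992 each), and *Plxna1* most like *Pdgfrb* (0.982) and *Zmat3* (0.98). *Plxna3* and *Kirrel2* deviated most from those means in ΔJ replicates 5 and 6. Their levels were 0.55 and 1.28 for *Plxna3*, beside 0.90 in ΔJ replicate 4. For *Kirrel2* they were 2.62 and 3.70, beside 3.11 in ΔJ replicate 4. *Nrp2* varied most like *Lonrf1* (0.976) and the nonmuscle myosin gene *Myh10* (0.975), *Nrp1* most like *Tlk1* (0.968) and the mitochondrial fusion gene *Opa1* (0.941), and *Robo2* most like *Olfr347* (0.956) and *Add1* (0.951). Of the ligands, *Sema3a* varied most like the synaptotagmin gene *Syt5* (0.977), *Sema3f* most like *Trdn* (0.97), and *Slit1* most like *Anks1* (0.965) and *Rfx4* (0.962). *Kirrel3* varied most like *Heatr5b* (0.987) and *Flrt1* (0.966). The second genes of *Sema3a* and *Sema3f* were *Olfr790* (0.972) and *St6gal2* (0.945).

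The 10 genes lie apart from each other in the genome. In the RefSeq annotation of GRCm38.p6, *Kirrel2* is the only one on the chromosome of the class I receptors, at chr7:30447766-30457515. Its start is 72.0 Mb from that of *Olfr544*. *Nrp2* lies at chr1:62703317-62818692, *Nrp1* at chr8:128358591-128505476, *Sema3a* at chr5:13124822-13603485, *Plxna1* at chr6:89316313-89362613, *Sema3f* at chr9:107681499-107710475, *Kirrel3* at chr9:34485853-35040807, *Robo2* at chr16:73891976-75447443, *Slit1* at chr19:41597824-41747275 and *Plxna3* at chrX:74328290-74344689.

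Upstream sequence was read for the genes at both ends of the range of estimates. The 250 bases upstream of the RefSeq start of *Kirrel2* (chr7:30457516-30457765, minus strand) and of *Nrp2* (chr1:62703067-62703316, plus strand) follow, 5′ to 3′, with each CG dinucleotide in capitals.
Kirrel2: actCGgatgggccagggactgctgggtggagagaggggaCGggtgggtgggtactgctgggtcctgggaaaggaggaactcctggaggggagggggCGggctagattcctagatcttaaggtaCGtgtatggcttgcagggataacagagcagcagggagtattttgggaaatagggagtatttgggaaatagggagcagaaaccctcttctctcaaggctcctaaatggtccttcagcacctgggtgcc
Nrp2: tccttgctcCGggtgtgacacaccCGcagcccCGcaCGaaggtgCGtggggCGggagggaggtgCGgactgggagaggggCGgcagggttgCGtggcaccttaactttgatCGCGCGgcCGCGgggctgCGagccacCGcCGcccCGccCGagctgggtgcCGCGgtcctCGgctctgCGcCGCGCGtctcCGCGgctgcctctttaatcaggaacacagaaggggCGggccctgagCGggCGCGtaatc
The window of *Kirrel2* holds 4 CG dinucleotides at 56.4% GC, and that of *Nrp2* holds 32 at 72.4% GC, while the medians over 32851 such windows of all genes were 6 and 52.4%. Windows were found for 6 of the 10 genes, 8 windows in all, 3 of them of *Robo2*. Those of *Nrp1*, *Plxna3* and *Sema3a* lie inside the RefSeq span of their gene. Homeodomain proteins such as Lhx2 bind the letters TAATTA in odorant receptor promoters. These letters were searched on both strands, together with the variant spelled TAATTG, the variant spelled TAATGA and the variant spelled TAATGG. At least 1 of the 4 was found in 1 of the 8 windows and in 22.8% of the windows of all genes. The match is in the most distal of the 3 windows of *Robo2* (chr16:75447497-75447526, minus strand) and is shown in capitals. That window, chr16:75447294-75447543, overlaps the RefSeq span of the gene, which reaches 75447443.
Robo2: caaggctatagtTAATTGctcctctatccc

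Other genes of the same pathways were examined in the same fit. Of 105 other guidance genes in 9 families, measured by 117 probe sets, 0 were called between ΔJ and wild-type mice in limma, and 76 of 117 estimates were below 0. Their median log2 fold change was -0.03, that of the 10 genes was -0.05 and that of all probe sets was -0.03. At an unadjusted p under 0.05, 1 probe set was higher and 1 lower in ΔJ mice, beside 1.18% and 2.16% of all probe sets. The higher one was *Plxnc1*, the receptor of a membrane-bound semaphorin, at 0.17 (unadjusted p = 0.0318, adjusted p = 0.993), and the lower one *Unc5a*, a netrin receptor, at -0.25 (unadjusted p = 0.0174, adjusted p = 0.993). *Plxnc1* averaged -1.80 ± 0.13 in ΔJ mice and -1.97 ± 0.06 in wild-type mice, and *Unc5a* -1.44 ± 0.15 in ΔJ mice and -1.19 ± 0.16 in wild-type mice (SD, n = 6 each).

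In the remaining families the genes with the smallest p are named as a description. Of the other semaphorins, *Sema5a* had a log2 fold change of -0.10 and *Sema4c* of 0.08, both transmembrane members of the family. Beside *Plxnc1*, *Plxnb2*, a receptor of class 4 semaphorins, was at 0.06. All 5 probe sets of other Robo and Slit genes had estimates below 0, between -0.08 and -0.01, with *Robo4*, the Robo receptor of blood vessels, at -0.08 and *Robo1* at -0.07. Among the Eph receptors, the kinases that read ephrins on the surface of other cells, *Epha8* was at -0.17 and *Epha7* at -0.35. *Epha7* had the lowest estimate of the 117 probe sets, with a mean of 0.41 ± 0.53 in ΔJ mice and 0.77 ± 0.25 in wild-type mice, and it was at -0.17 without ΔJ replicate 5. The netrin gene *Ntn3* was at -0.13. Of the adhesion molecules, the contactin gene *Cntn2* was at -0.11, and *Nphs1*, which encodes nephrin, a binding partner of Kirrel proteins in the kidney, was at -0.16 and -0.11 in its 2 probe sets. *Igf2* was at -0.26 and the receptor gene *Igf1r* at 0.09. Of the intracellular effectors, *Farp2*, a Rac exchange factor of Sema3a signalling, was at -0.14 and *Dpysl3*, a collapsin response mediator, at 0.09. Among the genes of cAMP signalling, which sets the levels of several guidance molecules in OSNs, *Prkar1a*, a regulatory subunit of protein kinase A, was at 0.07. The probe sets of the olfactory channel gene *Cngb1* were at -0.05, -0.24, -0.10 and -0.10. The one at -0.24 had a mean level of -2.25 in ΔJ mice, and the one at -0.05 a mean of 2.17. None of these was called.

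**Figure D4:**
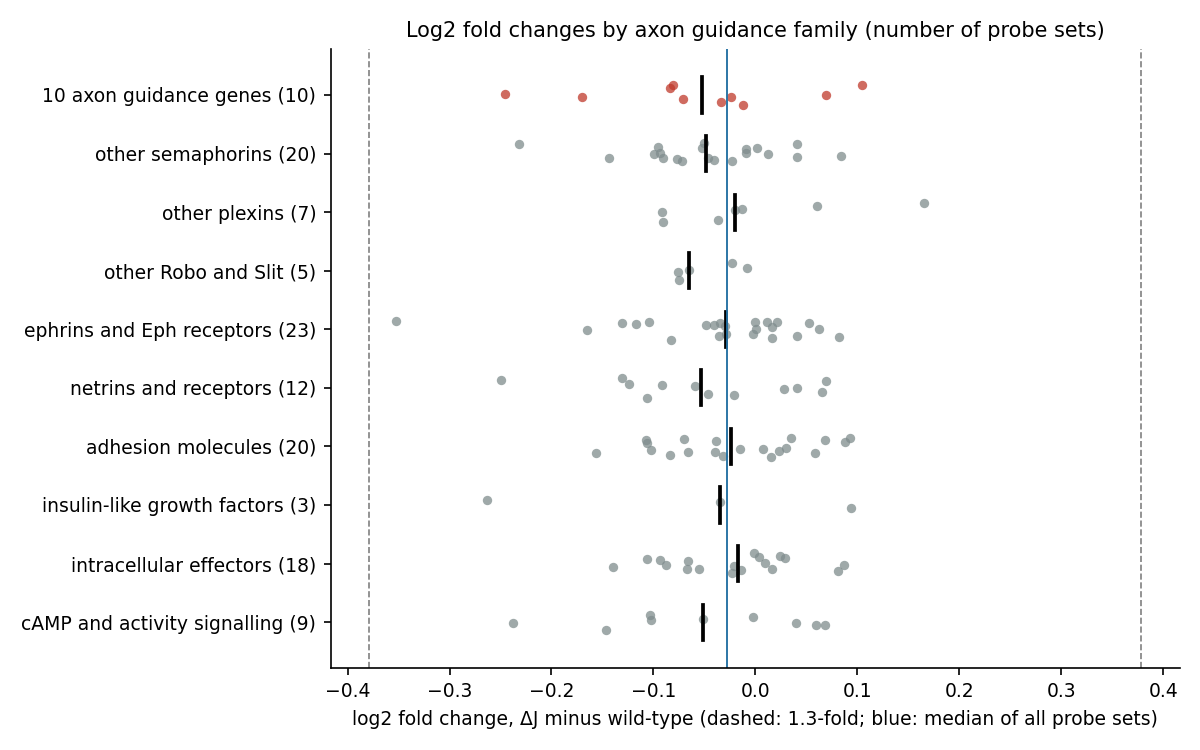
Log2 fold change, ΔJ minus wild-type, of the 10 axon guidance genes (red) and of the other guidance genes by family (grey), 1 point per probe set, with black bars for the medians of the lists, a blue line for the median of all probe sets and dashed lines at 1.3-fold. All points lie within 1.3-fold, and the median of the 10 genes is -0.05 against -0.03 over all probe sets.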

How the data were processed

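RNA of the MOE of 6 ΔJ and 6 wild-type mice was measured on Affymetrix arrays. The authors deposited log2 signals per probe set. Affymetrix Expression Console is named in the submitters' processing notes. Its version is not given in the sources used here, nor is how signals were corrected and summarized. The 75th percentile of each array was subtracted, as in the study's methods. Linear models with moderated variances (limma 3.58.1, R 4.3.3) were fitted to all 35556 probe sets, the main one on genotype alone, and p-values were adjusted over all of them by Benjamini-Hochberg at 0.05. Confidence intervals are 95% intervals of that fit, not adjusted for the number of genes. Permutation tests ran in Python 3.11.15 and SciPy 1.17.1. Gene symbols are those of the platform annotation, and all 10 gene IDs were found in RefSeq, the source of the upstream sequences. The fit was run on simulated data only as a check of the code. Those data were drawn independently for each mouse, with no array set difference. The number of arrays limits the precision.

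The members and lists were chosen with earlier results of these data known. All 10 members are named, with the 2 genes of smallest unadjusted p in each family and the 2 probe sets most like each member. *Olfr544* and *Olfr552* are named because they lost the most signal in earlier results of these data. Where the labels do not tie mice to litters, p-values measure the spread between these mice. Mice of opposite genotype with the same replicate number deviated together from their genotype means (correlations of 0.185 to 0.441, above 0.1 in all 6 pairs). By these deviations, 1 of 6 ΔJ mice correlated best with the wild-type mouse of its own number. With the array set means also taken out, the correlations of the pairs were -0.144 to 0.078. The main fit did not take the numbers as pairing. A block on them, tried as a setting, changed no call of the 10 genes. Over all probe sets it called 51, against 48 in the main fit. No 2 arrays held identical values (0 pairs).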

Additional observations from a re-analysis of the deposited data

How the results depend on the processing

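Of the 10 guidance genes, 0 were called between the genotypes under 25 settings (no shift, median shift, quantile normalization, dim probe sets left out, single-gene probe sets only, eBayes with a trend, the replicate block, array set, sex or age as a term, P30 mice only, each array set alone, and without each mouse in turn), and 0 of the other guidance probe sets tested. With the replicate block 0 of the 10 genes were called, the smallest member p was 0.0932 (*Nrp2*, adjusted p = 0.62 in limma), and no call of a guidance gene changed. Between array sets 4 to 5 genes were called, but with no shift 4 were higher and 0 lower in array set 2, against 2 higher and 3 lower with the 75th percentile subtracted. By sex 0 were called. The interaction counts stayed at 0 under the same 6 processing settings and without ΔJ replicate 5, tried after the data were seen.

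The sign of 4 of the 10 estimates held under all 25 settings. Some of these settings could not turn a sign, since they left every estimate as it was. They were dim probe sets left out, single-gene probe sets only, eBayes with a trend, the replicate block and array set as a term. In array set 1 alone, the estimates of *Sema3a*, *Plxna1*, *Plxna3*, *Slit1* and *Kirrel2* were above 0, at 0.0386, 0.0106, 0.0026, 0.0429 and 0.0861. With the median subtracted, *Sema3a*, *Slit1* and *Kirrel3* were at 0.0082, 0.0178 and 0.0303, *Kirrel3* was at 0.00052 with no shift, and *Slit1* at 0.0198 with age as a term. The median difference of all probe sets between genotypes moved by less than 0.1 under each scaling. Without 1 mouse, the estimates ranged from -0.0771 to 0.035 for *Sema3a*, -0.0802 to 0.0217 for *Slit1*, -0.0561 to 0.0242 for *Kirrel3*, -0.34 to -0.10 for *Kirrel2*, -0.25 to -0.10 for *Plxna3*, -0.13 to -0.02 for *Robo2*, -0.10 to -0.03 for *Plxna1*, -0.12 to -0.04 for *Sema3f*, 0.04 to 0.12 for *Nrp1* and 0.07 to 0.14 for *Nrp2*. Without the 2 mice farthest from the median, r turned to 0.221 for *Nrp1* and *Plxna1* in array set 2, 0.741 for *Nrp2* and *Plxna3* in array set 1, 0.303 and -0.0797 for *Robo2* and *Slit1* in array sets 1 and 2, and 0.126 and -0.431 for *Kirrel2* and *Kirrel3* in array sets 1 and 2. With no shift, r was 0.0531 for *Nrp1* and *Plxna1* in array set 2, and *Nrp2* and *Sema3f* in array set 2 passed the exact permutation test (r = -0.933, adjusted p = 0.0167), with mice of both ages exchanged. The cause was not tested.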
